A study of Mus musculus with 2 samples.

Results

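The nuclear genes of the mitochondrial ribosome were followed in mouse blastocysts and in their inner cell masses on embryonic day E3.75. The members are the genes of the deposited table whose symbol starts with Mrpl or Mrps and a number. They were chosen by symbol alone, and 75 of the 19559 listed genes matched, 46 named for the large subunit (Mrpl) and 29 for the small subunit (Mrps). RNA had been measured in 2 samples, 1 library of whole E3.75 blastocysts and 1 library of E3.75 inner cell masses (ICMs) freed by immunosurgery, in which antibody and complement lyse the outer cells. Both came from crosses of B6CBAF1 females with CD-1 males. The labels name no allele and no treatment, and the sources used here do not give the number of embryos per library.

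Mitochondria carry a small genome of their own, whose mRNAs encode core subunits of the respiratory chain and of the ATP synthase and are translated inside the organelle by a separate ribosome. The rRNAs of that ribosome come from the mitochondrial genome, whereas its proteins are encoded in the nucleus, made in the cytosol and imported. Many of them have a counterpart in bacterial ribosomes and others occur in mitochondrial ribosomes alone. The small subunit holds the decoding site, and the large subunit holds the peptidyl transferase centre and the tunnel through which the new chain leaves towards the inner membrane. In the blastocyst the outer trophectoderm is an energy-demanding transporting epithelium, and the ICM holds the precursors of the epiblast and of the primitive endoderm.

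Listed genes took 9271198 reads of whole blastocysts and 4125479 of ICMs. The markers followed the labels. All 7 trophectoderm markers were at least 2-fold lower in the ICM library (summed RPKM 1647 and 51.0, with no ICM read of Elf5), while 6 of 7 epiblast markers and 4 of 5 primitive endoderm markers were at least 2-fold higher. Of the markers of other cells, 1 of 5 blood and immune genes and 3 of 6 cumulus and uterine genes reached an RPKM of 1, with summed RPKM of 3.71 and 0.410 and of 22.2 and 3.83 in whole blastocysts and ICMs. Among them, Hbb-b1, Lyz2, Amh, Inhba and Ltf had no read in the ICM library. Their part in the results was not tested. RPKM is a gene's read count divided by its length and scaled to a library total. Differences are log2((ICM RPKM + 1)/(whole-blastocyst RPKM + 1)), ratios are ICM RPKM over whole-blastocyst RPKM, and ranges in parentheses after a ratio or fold are 95% intervals that cover counting error only. There was 1 library of each kind, so no spread between replicates is known and no p-value was computed. In whole embryos and isolated ICMs, fewer cells of a type and less RNA per cell cannot be told apart.

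On the deposited RPKM scale, most mitochondrial ribosomal protein genes were lower in the ICM library, as were 76.6% of all genes measured. The median of the small subunit lay below that of the large one. Of the 75 genes, 70 reached an RPKM of 1 in at least 1 library. The ICM value was at least 2-fold lower in 38 of these 70, at least 2-fold higher in none, and within 2-fold in 32. Over all 8981 genes that reached this level, 44.0% were at least 2-fold lower and 8.96% at least 2-fold higher. With every listed gene as the background these shares are 20.2% and 4.12%. At any size of difference, 60 of the 70 had the lower RPKM in the ICM, beside 76.6% of all genes. With the libraries scaled to the reads on listed genes, this number was 44 of the 70. Of the 49 genes with a mean RPKM of 5 or more, 27 had an ICM value at least 2-fold lower and none one that much higher, beside 45.9% and 5.52% of all genes at that level. The 3 genes Mrpl21, Mrpl23 and Mrps36 had no read in either library. Mrps5 (13 and 2 reads) and Mrps33 (21 and 11 reads) stayed under an RPKM of 1. Mrps36 is no longer counted as a ribosomal protein, since its product belongs to the 2-oxoglutarate dehydrogenase complex.

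The median difference of the 70 genes was -1.22, compared with -0.84 over all genes. Much of this is shared with the rest of the transcriptome. The 3013 genes whose RPKM was 5 or more in each library had a median of -0.66, and differences measured from that value are called centred. After centring, 19 of the 70 genes were at least 2-fold lower and 8 at least 2-fold higher, beside 20.5% and 16.9% of all genes, and the median was -0.56 (-0.18 over all genes). Without centring, no gene of the family passed 2-fold upwards. Summed over all 75 genes, RPKM went from 1018 in the whole blastocyst to 518.0 in the ICM, a ratio of 0.509, and the same sum over all listed genes had a ratio of 0.514. The 75 genes took 0.283% of the listed reads in whole blastocysts and 0.281% in the ICM. Thus the family as a whole held nearly the same share of the reads in both libraries, while the members with reads in both spread from 108-fold lower to 2.08-fold higher. Without a pseudocount 3 of the 70 ratios were 2 or more (Mrpl37, Mrpl40 and Mrps15), beside 11.7% of all genes. Downwards, Mrpl15, Mrpl41, Mrps11, Mrps18b and Mrps26 had ratios from 0.436 to 0.497 but count as within 2-fold with the pseudocount.

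Counting error, computed as if reads were independent, was small beside this spread. For 56 of the 70 genes the interval of the ratio lay wholly below 1, for 8 wholly above it, and for 6 it included 1. Over all genes, 70.4% lay wholly below and 18.6% wholly above. Measured from the centre, a ratio of 1 over 1.58, 42 genes lay wholly below, 17 wholly above and 11 included it, beside 52.9% below and 32.4% above over all genes. Beyond counting error so computed, the genes did not share 1 common ratio. The libraries were amplified without molecular identifiers, so the true error may be larger than these intervals.

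**Figure D1:**
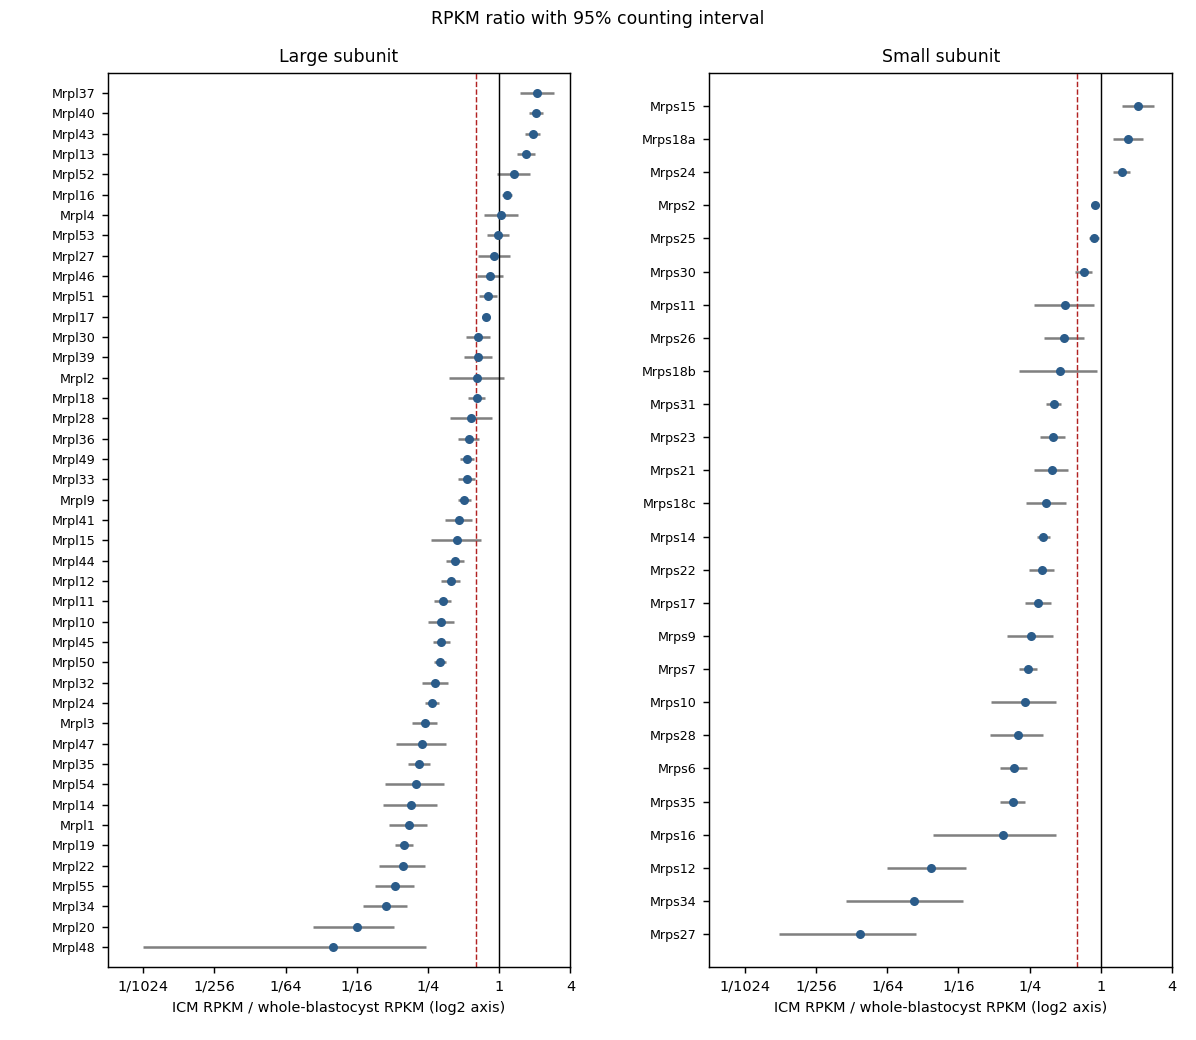
RPKM ratio of ICM to whole blastocyst (log2 axis) for each gene with reads in both libraries that reached an RPKM of 1, large subunit on the left and small subunit on the right. Points are ratios and bars are 95% counting intervals, the solid line marks a ratio of 1 and the dashed line the centre of all genes. Mrpl37, Mrpl40 and Mrps15 are the genes with a ratio above 2, and Mrps27 lies farthest to the left.

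Of the large-subunit genes, 21 of 44 (47.7%) were at least 2-fold lower and the other 23 within 2-fold, a share near the 44.0% over all genes. Of the small-subunit genes, 17 of 26 (65.4%) were at least 2-fold lower and the other 9 within 2-fold. The medians were -0.90 and -1.34, a gap of 0.44, and the ranges overlapped almost fully, from -2.71 to 0.98 in the large and from -3.38 to 0.96 in the small subunit. Summed RPKM went from 680.5 to 373.7 for the large subunit (ratio 0.549) and from 337.5 to 144.3 for the small subunit (0.428). Mrpl24 alone made up 16.6% of the large-subunit sum in the whole blastocyst. The difference between the subunits was not tested, since genes are not replicates. With RPKM rescaled to equal sums in both libraries the ratios were 1.07 and 0.832, so the direction of the large-subunit sum depended on the scaling. After centring, 12 of the 44 large-subunit genes were lower and 5 higher. In the small subunit, 7 of the 26 were lower and 3 higher, beside 20.5% and 16.9% of all genes. The shares of lower genes in the subunits were then nearly equal.

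Symbols do not wholly follow the structure of the ribosome. The products of Mrps30 and Mrps18a sit in the large subunit, and 7 further ribosomal proteins have other symbols. With genes sorted by the place of their product, 23 of 49 large-subunit and 19 of 28 small-subunit genes were at least 2-fold lower, with medians of -0.88 and -1.34. The gap between the medians was 0.46, so the order of the subunits was the same.

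**Figure D2:**
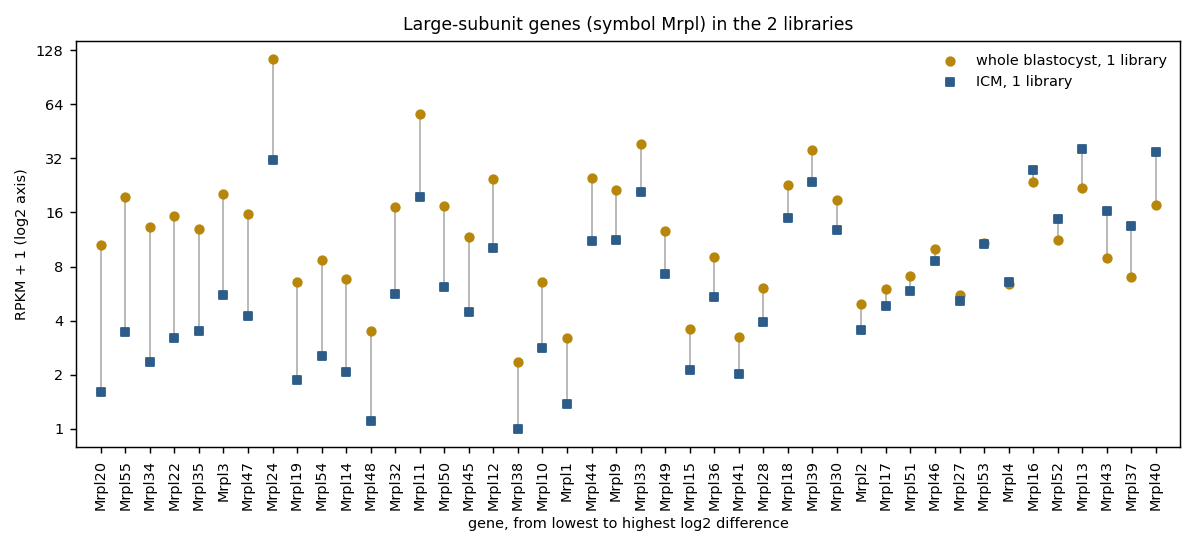
RPKM + 1 (log2 axis) of the 44 large-subunit genes that reached an RPKM of 1, in the whole-blastocyst library (circles) and the ICM library (squares), ordered by log2 difference. Squares lie below circles in 37 genes, and Mrpl16, Mrpl13, Mrpl43, Mrpl37 and Mrpl40 are among the 7 on the right where they lie above.

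Among the large-subunit genes, those listed here for proteins around the tunnel exit had lower RPKM in the ICM library where they had reads. This group holds Mrpl22, Mrpl23, Mrpl24 and Mrpl47 and the membrane anchor Mrpl45, which ties the ribosome to the inner membrane. Mrpl23 had no read, and the other 4 were at least 2-fold lower, beside 44.0% of all genes. Mrpl24 had the highest RPKM of the family in whole blastocysts, 113, and 30.5 in the ICM. It was thus 3.71-fold lower (3.23 to 4.26) on 1135 and 258 reads. Mrpl22 went from 14.3 to 2.21, 6.49-fold lower (4.23 to 10.4). Mrpl47 had 14.6 and 3.26, and Mrpl45 had 10.7 and 3.47. All 4 intervals lay below the centre as well. After centring 3 of the 4 were at least 2-fold lower, all but Mrpl45, beside 20.5% of all genes. The list is not complete. It leaves out Mrpl17, also a protein near the tunnel exit, which was within 2-fold. Mrpl17 had RPKM of 4.97 and 3.84 on 1424 and 926 reads. Its ratio of 0.772 (0.710 to 0.839) had an interval above the centre.

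The genes of the stalk, the flexible arm that recruits the translation factors, behaved alike. Mrpl11 of its base had RPKM of 55.7 in whole blastocysts and 18.5 in the ICM. Its ratio was 0.333 (0.282 to 0.392). Mrpl12, the counterpart of the bacterial stalk protein, had 23.5 and 9.13, and Mrpl10, which carries it, had 5.60 and 1.81. All 3 were at least 2-fold lower, beside 44.0% of all genes, with a narrow range of differences from -1.54 to -1.23. After centring none of the 3 was 2-fold lower (-0.88 to -0.57), beside 20.5% of all genes.

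The genes for proteins around the peptidyl transferase centre were divided. Mrpl3 went from 19.3 to 4.53, 4.25-fold lower (3.35 to 5.45). Mrpl16, which helps to place the tRNA, had 22.8 and 26.7 on 818 and 808 reads, a ratio of 1.17 (1.06 to 1.29). Its ICM value was the higher one, unlike that of most members. Mrpl4 had 5.38 and 5.54, Mrpl27 had 4.55 and 4.14, and Mrpl2 had 3.94 and 2.55. The intervals of these last 3 included a ratio of 1.

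The central protuberance, where the large subunit touches the head of the small subunit, held the lowest ratios of the large subunit and also its highest difference. Mrpl40 had RPKM of 16.6 in whole blastocysts and 33.8 in the ICM, from 333 and 571 reads. Its ratio of 2.04 (1.77 to 2.34) and its difference of 0.98 put it just under the 2-fold line on the scale with the pseudocount. Mrpl48 rested on 30 and 1 reads, a ratio of 0.0396 (0.000970 to 0.238). Mrpl38 had 19 whole-blastocyst reads and no ICM read, with a counting interval that makes it at least 3.93-fold lower. Mrpl46 had 9.08 and 7.62 and Mrpl18 had 21.7 and 14.0, both within 2-fold.

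The 5 lowest differences of the large subunit all belonged to genes with a bacterial counterpart, whereas the lower ratios of Mrpl38 and Mrpl48 belong to genes specific to mitochondria. Mrpl20, an rRNA-binding protein of the large subunit, had 9.52 in whole blastocysts and 0.603 in the ICM, 15.8-fold lower (7.81 to 37.3) on 150 and 8 reads. Mrpl55 went from 18.6 to 2.47, 7.56-fold lower (5.26 to 11.2). Mrpl34 went from 12.3 to 1.36, 9.04-fold lower (6.04 to 14.1). Together with Mrpl22 and Mrpl35 (11.9 and 2.51) these spanned differences from -2.71 to -1.88. The highest 5 were Mrpl40, Mrpl37, Mrpl43, Mrpl13 and Mrpl52, of which all but Mrpl13 are specific to mitochondria. Mrpl37 had 6.004 and 12.5 (ratio 2.08, 1.499 to 2.90). Mrpl43 had 7.97 and 15.2 (1.91, 1.66 to 2.20). Mrpl13 had 20.8 and 34.9, the highest RPKM of the family in the ICM library, a ratio of 1.67 (1.41 to 1.99). Mrpl52 had 10.3 and 13.7, with an interval of 0.964 to 1.82 that included 1.

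Sorted by origin, 15 of the 28 large-subunit genes with a bacterial counterpart were at least 2-fold lower (median -1.23), compared with 6 of the 16 specific to mitochondria (median -0.63). Their summed RPKM had ratios of 0.448 and 0.836, and Mrpl24 alone held 113 of the 503.7 RPKM of the first group in whole blastocysts. In the small subunit no such order was seen: 11 of 17 genes with a counterpart (median -1.41) and 6 of 9 specific ones (median -1.28) were at least 2-fold lower, and the ratios of the sums were 0.511 and 0.335. Over all genes 44.0% were at least 2-fold lower, and these splits were not tested. After centring, the median of the large-subunit genes specific to mitochondria was 0.03 and that of those with a counterpart -0.57.

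**Figure D3:**
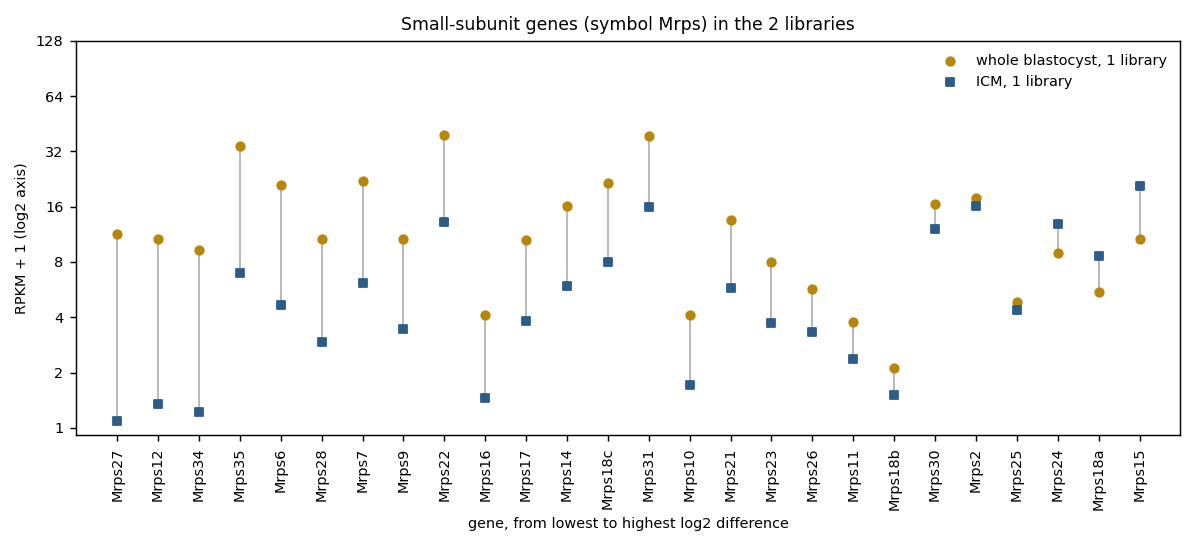
RPKM + 1 (log2 axis) of the 26 small-subunit genes that reached an RPKM of 1, in the whole-blastocyst library (circles) and the ICM library (squares), ordered by log2 difference. Squares lie below circles in 23 genes and above them in Mrps24, Mrps18a and Mrps15. Mrps27, Mrps12 and Mrps34 on the left have ICM values under 1.

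The small subunit held the 3 lowest differences of the family. Mrps27, a helical repeat protein of the small-subunit body, had 385 reads in whole blastocysts and 3 in the ICM, with RPKM of 10.4 and 0.0962. It was 108-fold lower (36.7 to 527). Mrps34, which like Mrps27 is specific to mitochondria, had 182 and 4 reads (8.34 and 0.217), 38.3-fold lower (14.7 to 142). Mrps34 overlaps Mapk8ip3 on the other strand and Nme3 on its own, with 20 and 170 reads of Mapk8ip3 and 79 and 51 of Nme3. Mrps35 went from 33.0 to 5.99, 5.51-fold lower (4.34 to 7.08), and Mrps6 from 20.1 to 3.68, 5.46-fold lower (4.23 to 7.14). These 4 and Mrps12 had the 5 lowest differences of the subunit, from -3.38 to -2.17.

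The genes of the decoding site and of the mRNA path differed widely among themselves. Mrps12, whose bacterial counterpart lines the decoding centre, had 261 and 8 reads and RPKM of 9.70 and 0.353, 27.5-fold lower (13.7 to 64.3). Mrps7, a protein of the head, had 21.2 and 5.17, 4.10-fold lower (3.45 to 4.90). Mrps2 had 16.9 and 15.1 on 1335 and 1003 reads, a ratio of 0.892 (0.821 to 0.969). Mrps24, which lies at the mRNA entry, had 7.95 and 11.9, a ratio of 1.501 (1.28 to 1.77). Thus 2 of the 4 measured genes were far lower in the ICM library and the other 2 were not, with Mrps5 under the RPKM minimum. Over all genes, 44.0% were at least 2-fold lower. After centring Mrps24 was at least 2-fold higher (1.19).

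Mrps15, an rRNA-binding protein, was the highest gene of the small subunit in the ICM library, with an RPKM of 9.68 in whole blastocysts and 19.8 in the ICM. Its ratio of 2.04 (1.502 to 2.80) rested on 68 and 117 reads. The highest RPKM of the subunit in the whole blastocyst were those of Mrps22 (38.5, and 12.3 in the ICM), whose human counterpart is a mitochondrial disease gene, and of Mrps31 (37.7 and 15.0). Both were lower in the ICM, 3.14-fold (2.47 to 4.02) and 2.52-fold (2.19 to 2.89).

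Vertebrates have a set of 3 genes that descend from a single bacterial small-subunit gene, and they differed. Mrps18a, the member of the set that sits in the large subunit, had 4.52 in whole blastocysts and 7.66 in the ICM. Its ratio was 1.69 (1.27 to 2.27). Mrps18c had 20.4 and 7.03, 2.90-fold lower (1.99 to 4.33). Mrps18b had 1.13 and 0.508 on 29 and 11 reads, 2.22-fold lower (1.08 to 4.93). The intervals of Mrps18a and Mrps18c did not overlap. Mrps30, the other large-subunit protein with a small-subunit symbol, had 15.5 and 11.1, a ratio of 0.718 (0.608 to 0.846).

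Among the remaining large-subunit genes, Mrpl17 included, 19 reached an RPKM of 1. Their whole-blastocyst RPKM ran from 2.21 to 37.5 (median 8.01) and their ICM RPKM from 0.379 to 22.8 (median 4.63). Of these 19, 7 were at least 2-fold lower: Mrpl1, which forms the mobile arm by the tRNA exit, Mrpl14, Mrpl19, Mrpl32, Mrpl44, Mrpl50 and Mrpl54. The other 12 were within 2-fold, and the differences ran from -1.81 to -0.03. The remaining 11 small-subunit genes had whole-blastocyst RPKM from 2.76 to 15.1 (median 6.999) and ICM RPKM from 0.461 to 4.92 (median 2.47). All but Mrps11, Mrps25 and Mrps26 were at least 2-fold lower, with differences from -1.86 to -0.14. The share at least 2-fold lower over all genes was 44.0%.

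By RPKM the 5 highest genes of the family in the whole blastocyst were Mrpl24, Mrpl11, Mrps22, Mrps31 and Mrpl33 (37.5). In the ICM they were Mrpl13, Mrpl40, Mrpl24, Mrpl16 and Mrpl39 (22.8), so only Mrpl24 stood in both. Across the 70 genes, which are not independent replicates, log2(RPKM + 1) in the libraries had a Pearson r of 0.69 and a Spearman rho of 0.66, compared with 0.73 and 0.67 over all genes. The difference of a gene was hardly related to its mean RPKM (r = 0.12, rho = 0.10) or to the gene length behind RPKM (r = 0.01, rho = 0.00). That length enters every level. For the 70 genes it had a rho of only 0.23 with the longest annotated GENCODE transcript, compared with 0.52 over the 7688 genes matched, and relative to the median gene it ran from 0.0886 for Mrpl39 to 5.48 for Mrpl17. Order by level is therefore uncertain, whereas ratios without a pseudocount are free of that length. Differences with the pseudocount, the 2-fold calls made from them and the RPKM minimum of 1 still depend on it. Near the line for 2-fold lower, Mrps23 at -1.10 and Mrpl44 at -1.16 were the closest genes inside, and Mrpl9 at -0.92 in the large and Mrps26 at -0.79 in the small subunit the closest outside. On the other side, Mrpl40 at 0.98 and Mrps15 at 0.96 were just short of 2-fold higher.

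The 7 mitochondrial ribosomal proteins with other symbols had lower ICM values in 6 cases. The difference was at least 2-fold downwards in 4 and upwards in none, beside 44.0% and 8.96% of all genes, and the median was -1.07. After centring 1 was lower and 1 higher. Aurkaip1, a small-subunit protein, had 19.2 in whole blastocysts and 3.77 in the ICM, 5.09-fold lower (3.29 to 8.20). Mrp63 went from 4.51 to 0.944, 4.78-fold lower (3.76 to 6.14). Gadd45gip1 of the large subunit was the exception, with 3.46 and 5.39 (ratio 1.56, 1.30 to 1.87).

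Lists of genes that work with the ribosome are read against the 44.0% of all genes that were at least 2-fold lower and the 8.96% that were higher, or after centring 20.5% and 16.9%. Of 10 mitochondrial translation factors that reached an RPKM of 1, 7 lay at least 2-fold lower and none as much higher (median -1.16), and after centring 1 was lower and 1 higher. The initiation factor gene Mtif3 had 475 and 8 reads and was 50.02-fold lower (25.2 to 117). The elongation factor gene Gfm1 went from 53.3 to 16.2, and Oxa1l, the insertase that receives new chains at the membrane, from 8.39 to 2.28. Only Gfm2 of the 10 lay higher in the ICM, with a ratio of 2.50 (2.01 to 3.12). Of 21 genes for assembly of the ribosome and modification of its rRNA, 12 were lower and 1 higher (median -1.10), and after centring 6 and 5. Differences were below 0 in 15 of the 21 and above 0 in 6. Mterfd2 (current symbol Mterf4, with 920 and 6 reads) was 129-fold lower (59.1 to 353), and Ngrn 26.2-fold lower (17.9 to 40.1). The higher gene was 1110032A13Rik (current symbol Rbfa), with a ratio of 2.75 (1.94 to 3.96). Of 13 genes of mitochondrial transcription and RNA handling, 7 were lower and none higher (median -1.02), and after centring 4 and none. Lrpprc, which stabilises mitochondrial mRNAs, went from 252.3 to 75.9 (-1.72). Lower still were 1110002N22Rik (current symbol Tefm) at -3.83 on 375 and 1 reads, 1810035L17Rik (current symbol Slirp) at -2.96, and Pnpt1 at -2.67.

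The mitochondrial aminoacyl-tRNA synthetases lay higher, with 4 of 15 at least 2-fold lower, 2 higher and a median of -0.32, and after centring 1 was lower and 3 higher. Yars2 (18.6 and 2.49) and Wars2 (0.884 and 4.09) were the farthest in each direction. For comparison, 22 of 34 complex I subunit genes were at least 2-fold lower (median -1.17) and 20 of 52 cytosolic ribosomal protein genes (median -0.71), of which 3 were at least 2-fold higher. The cytosolic list named 82 genes, of which 13 had no read in either library, so it is an incomplete comparison. After centring, 10 complex I genes were lower and 1 higher, and 2 cytosolic ribosomal protein genes were lower and 6 higher (median -0.05). The direction of the calls thus turned in the cytosolic list, as it did in the synthetases (centred median 0.34). The small-subunit median of -1.34 was the lowest of these lists and the large-subunit median of -0.90 lay between those of complex I and of the cytosolic ribosome. None of these differences between lists was tested.

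**Figure D4:**
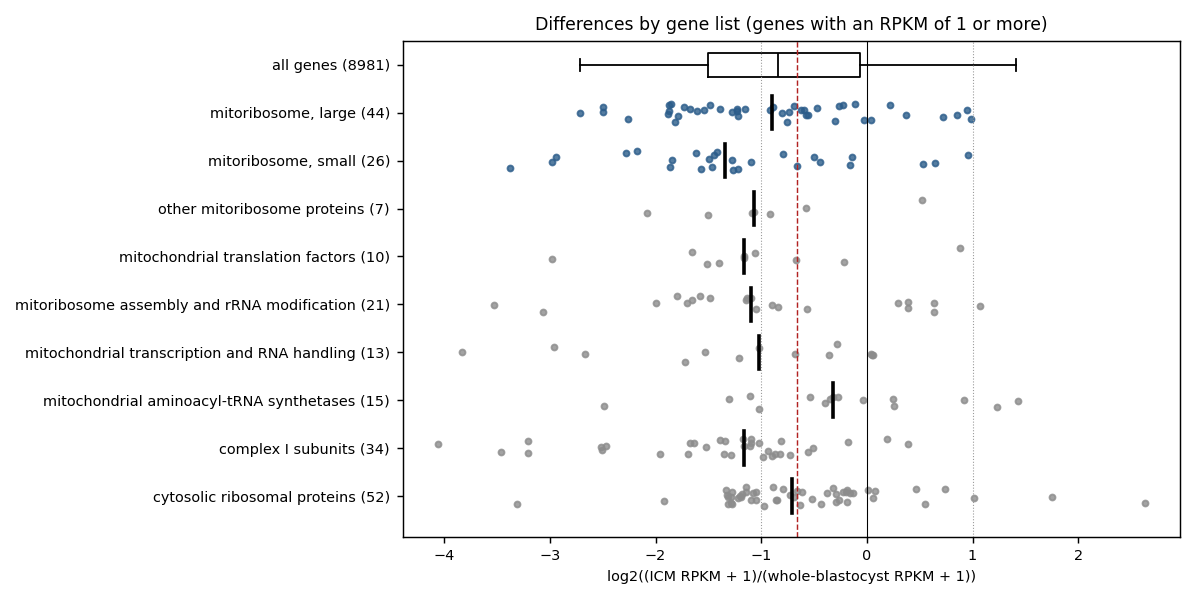
Log2 difference of each gene that reached an RPKM of 1, by gene list with the number of genes in parentheses. Points are genes, black bars are medians, the box of all genes spans the quartiles with whiskers at the 5th and 95th percentiles, dotted lines mark 2-fold and the dashed line the centre. The medians of the large and the small subunit are -0.90 and -1.34.

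Promoters were searched for shared letters, since these genes encode the parts of 1 particle. The RefSeq promoter table (GRCm38.p6, 250 bases before to 50 bases after a start) held 66 of the 75 genes. Letters were searched on both strands, and a match is a description of the sequence, not a binding site. The core motif of ETS factors, CCGGAAG, stood in 24 of the 66 (36.4%), compared with 9.93% of all 27025 genes of the table and 21.9% of the 6240 that also reached an RPKM of 1 here. The core of the YY1 motif, AAGATGG, stood in 12 (18.2%, against 7.28% and 8.93%), and GCGCATG, a part of the site of nuclear respiratory factor 1, in 8 (12.1%, against 4.41% and 8.75%). At least 1 of these 3 motifs was found in 35 genes (53.0%, against 19.5% and 34.7%). The GC box GGGCGG stood in 32 (48.5%, against 38.2% and 70.7%), CCAAT in 26 (39.4%, against 41.1% and 43.3%), the E-box CACGTG in 5 (7.58%, against 8.09% and 12.5%) and TATAAA in 5 (7.58%, against 15.7% and 8.43%). The ETS core stood in 11 of 32 genes that were at least 2-fold lower and in 11 of the other 29 that were measured.

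The 100 bases before the RefSeq start are printed here for the lowest, the highest and the most abundant gene of each subunit among those with a single start in the table, so that the letters behind these counts can be seen. They are written 5′ to 3′ on the strand of the gene, and capitals mark the motifs searched. Mrpl20 (chr4:155802778-155802877, plus strand) holds the E-box, Mrpl40 (chr16:18876638-18876737, minus strand) and Mrps15 (chr4:126046828-126046927, plus strand) hold 2 GC boxes each, Mrps27 (chr13:99344686-99344785, plus strand) and Mrps22 (chr9:98601680-98601779, minus strand) hold the ETS core, and Mrpl24 (chr3:87919444-87919543, plus strand) holds none in this stretch.
Mrpl20: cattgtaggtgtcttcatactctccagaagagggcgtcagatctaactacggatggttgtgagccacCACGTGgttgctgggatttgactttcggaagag
Mrpl40: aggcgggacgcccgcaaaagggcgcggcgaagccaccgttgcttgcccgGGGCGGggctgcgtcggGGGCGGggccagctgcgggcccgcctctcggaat
Mrpl24: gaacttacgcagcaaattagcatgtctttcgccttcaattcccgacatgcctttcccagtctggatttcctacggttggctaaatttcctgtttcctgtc
Mrps27: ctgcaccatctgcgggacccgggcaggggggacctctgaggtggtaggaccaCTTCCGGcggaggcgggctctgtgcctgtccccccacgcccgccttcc
Mrps15: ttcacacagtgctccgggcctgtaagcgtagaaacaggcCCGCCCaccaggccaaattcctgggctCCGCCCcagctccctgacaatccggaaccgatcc
Mrps22: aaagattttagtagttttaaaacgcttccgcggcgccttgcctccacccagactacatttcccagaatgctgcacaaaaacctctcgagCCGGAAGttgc
The ETS core of Mrps22 begins 11 bases before the start, and that of Mrps27, which reads CTTCCGG because it lies on the other strand, 48 bases before it. These 6 genes were picked for their values, so the motif each holds is shown as sequence and not as a trend.

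Some of these genes start back to back with a neighbour that is transcribed the other way. By RefSeq starts, 26 of the members had such a neighbour within 1000 bases (or overlapping it by at most 100), in 25 pairs, since Mrps11 and Mrpl46 face each other across 42 bases. In 17 pairs both genes reached an RPKM of 1. The member was at least 2-fold lower and its neighbour not in 6 pairs, the neighbour alone was lower in 4, both in 1 and neither in 6. Over all genes, 44.0% were at least 2-fold lower. Across the 17 pairs the differences had a Pearson r of -0.28 and a Spearman rho of -0.22, given as a description.

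In some pairs the differences had opposite signs. Mrpl40 had a ratio of 2.04, while its neighbour Hira, a histone chaperone gene whose start lies 113 bases away, had 7.63 in whole blastocysts and 1.46 in the ICM, a difference of -1.81. Mrps12 was 27.5-fold lower in the ICM, while Sars2, a mitochondrial seryl-tRNA synthetase gene 147 bases away, had 1.26 and 1.68 on 24 and 27 reads. The Sars2 ratio of 1.34 had an interval (0.742 to 2.42) that included 1. Mrps7 was 4.10-fold lower, while Gga3, which starts 224 bases away and overlaps it, had 2.99 and 7.77. Mrpl43 and Twnk, the mitochondrial DNA helicase gene (Peo1 in the table), both lay higher in the ICM, with differences of 0.86 and 0.29. The pair of members, Mrpl46 and Mrps11, had differences of -0.23 and -0.67.

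**Figure D5:**
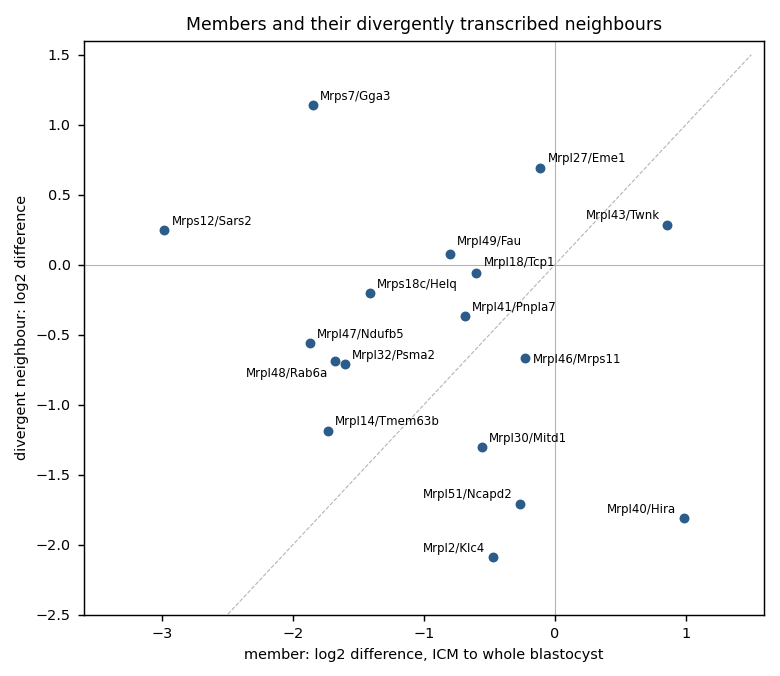
Log2 difference between ICM and whole blastocyst of each member (horizontal axis) and of its divergently transcribed neighbour (vertical axis), for the 17 pairs in which both genes reached an RPKM of 1. The dashed line marks equal differences. Mrpl40 with Hira lies at the lower right, and Mrps12 with Sars2 and Mrps7 with Gga3 at the upper left.

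Some values may include reads from other genes. The sources used here do not say whether strand was used in counting. In the GENCODE M21 annotation 18 of the members overlap another listed gene, 17 of them one on the opposite strand, so reads of these pairs cannot be told apart where they overlap. They include Mrpl13 (with Mtbp), Mrpl36 (with Ndufs6), Mrpl47 (with Ndufb5 and Actl6a), Mrps6 (with Slc5a3), Mrps7, Mrps18a and Mrps34. RefSeq names a pseudogene of Mrpl23, Mrpl27, Mrpl48 and Mrps36, and how multiply mapping reads were counted is unknown here, so the values of these 4 genes are uncertain. The context lists were not searched for pseudogenes.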

How the data were processed

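Read counts and RPKM values per gene symbol were deposited by the authors in 1 table. Per the submitters' processing notes, reads were placed on mm9. The sources used here name neither the aligner nor the gene lengths and library totals behind the deposited RPKM. Per the labels' protocols, RNA was isolated with a PicoPure kit, amplified with the NuGEN Ovation system and sequenced as SOLiD fragment libraries. Without molecular identifiers, reads are not independent molecules. For every gene, RPKM per read differed between the libraries by the same factor, which means equal gene lengths and an ICM total of 0.842 times that of the whole blastocysts.

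From these values, log2 differences with a pseudocount of 1, which understates the change of low genes, and exact conditional (Clopper-Pearson) 95% intervals from the read counts were computed with Python 3.11.15, numpy 2.4.6, pandas 2.3.3 and scipy 1.17.1. Genes were counted if either library reached an RPKM of 1, and a difference of 1 or more in size is called 2-fold. The computations were tested on simulated data. Context lists were matched through current or older RefSeq symbols. Named were the 5 highest and lowest differences of each subunit (RPKM of 5 or more in 1 library) and the 5 highest levels of each library. Also named were genes without reads, the genes of the ribosome regions listed, the Mrps18 genes, Mrps30, Mrps36 and genes near 2-fold. From the context lists a few genes were named, not always those with the largest difference. The members and lists were chosen with earlier results of these data known. Divergent neighbours, overlapping genes and transcript lengths were added after the values were seen, and the planned comparison of protein sequences was not made.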

Additional observations from a re-analysis of the deposited data

How the results depend on the processing

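No paired analysis was possible because each group holds 1 library. The scaling between the libraries moved the counts most. Of the 38 genes at least 2-fold lower (21 large-subunit, 17 small-subunit), 19 (12 and 7) were so after centring, 20 (12 and 8) with RPKM rescaled to equal sums, 20 (12 and 8) with scaling to listed reads and 18 (11 and 7) after quantile normalization, beside 20.5%, 24.0%, 24.6% and 21.1% of all genes. Genes at least 2-fold higher went from 0 to 8, 9, 9 and 9 in that order, beside 16.9%, 21.0%, 20.3% and 20.6% of all genes, and to 3 with a pseudocount of 0.1 (11.5%). The medians over all members, the large and the small subunit were -0.56, -0.24 and -0.69 after centring, -0.37, -0.14 and -0.57 with equal sums, -0.41, -0.17 and -0.61 with listed reads, and -0.44, -0.064 and -0.61 after quantile normalization, beside -0.18, -0.014, -0.053 and 0.021 over all genes. The ratios of summed RPKM (large and small subunit) were 0.866 and 0.675, 1.07 and 0.832, 1.04 and 0.810, and 1.02 and 0.797. With a pseudocount of 5, 23 genes (12 and 11) were lower (19.6% of all genes), with medians of -0.60, -0.53 and -0.87. A 4-fold threshold left 9 genes, beside 13.4% of all genes. The small-subunit median lay below the large-subunit median under all 10 alternatives that gave both, by 0.33 to 0.57. Centring shifts every gene equally, so the gap of 0.44 was the same by construction. Scaling to equal sums or to listed reads multiplies all ICM values by 1 factor, so the gap could hardly move (0.43 and 0.44). The order of the subunits was therefore not put to a test by these settings. Differences below 0 numbered 60 of the 70 as reported, and 46, 44, 44 and 43 under the 4 scalings in that order. Low depth limits most Mrpl38, Mrpl48, Mrps5, Mrps16, Mrps27 and Mrps34, with at most 4 ICM reads each.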
